A study of Mus musculus with 199 samples.

Results

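CD3+ T cells sorted from the livers of mice with a chemical and dietary model of liver cancer were compared with T cells from livers of mice labelled PBS, using 14 of the 199 RNA-seq libraries of the series (14 of its 36 liver T cell libraries). The 6 tumour-model libraries were those titled liver T cells DEN ALIOS that carry no drug in the title, and the 8 controls were those titled liver T cells PBS. Animals were male wild-type C57BL/6 mice from an in-house colony. DEN is diethylnitrosamine, a liver carcinogen, and ALIOS is a feeding regimen high in fat and sugar. The labels give no age for either group, and they do not say whether the PBS mice had received the carcinogen or the diet. One library, DEN ALIOS replicate 3, also bears the word Vehicle. The titles name the liver, whereas the sorting protocol speaks of blood and tumours, so the share of tumour and surrounding liver in each sample is not known. Cells were sorted by flow cytometry, with a stated purity of at least 97%, and each of the 14 libraries came from a different animal by its label code.

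The sequencing runs differed between the groups. DEN ALIOS libraries came from 2 runs (3 in each), and PBS libraries from 3 other runs (3, 4 and 1). No run held libraries of both groups, so among these 14 libraries an effect of the run and an effect of the group cannot be told apart. Values that bear on this come from drug-treated DEN ALIOS libraries that share a run with PBS libraries, and from blood T cells of the same animals. They are given after the main results. Animal codes divide in the same way, with XBLA for all PBS animals and RCN or RCJ for all DEN ALIOS animals. What the codes stand for is not given in the sources used here. The drug-treated libraries that share a run with PBS libraries carry RCN codes, so the codes cannot be told apart from the group there either.

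T cells that meet antigen over a long time, as in a tumour, raise inhibitory surface receptors (checkpoint receptors such as PD-1 and LAG-3) and the nuclear factor TOX, a state named exhaustion, while often keeping granzymes and chemokines. Naive and central memory T cells instead carry the lymph node homing receptor CCR7 and the transcription factors TCF-1 and LEF-1, and recirculate through blood and lymph. The mouse liver is rich in natural killer T (NKT) cells, innate-like T cells that depend on the transcription factor PLZF (Zbtb16), carry the receptor NK1.1 (Klrb1c) in this strain, and release IL-4 quickly.

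Library depth was uneven. DEN ALIOS libraries held 5107727 to 9360666 counts in genes and PBS libraries 337110 to 10755816, and 2 PBS libraries were shallow (337110 counts in replicate 3 and 440785 in replicate 4). In these 2 a gene with 0 counts could still stand at up to 8.13 and 10.7 CPM (3 counts, scaled to a fixed library total). Between 18.5% and 21.8% of entries in DEN ALIOS libraries were unaligned, against 19.7% to 90.9% in PBS libraries, of which replicates 5 and 8 alone (19.7% and 20.3%) were under 25%. A single predicted transcript, Gm26917, held 52.2% of the counts of PBS replicate 4. Calls of members that were lost or gained without the shallow libraries, or with PBS replicates 5 and 8 only, are given beside the genes named with a fold change.

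The T cell label held in both groups. The CD3 epsilon gene Cd3e lay between 359 and 627 CPM (median 509) in DEN ALIOS libraries and between 107 and 588 CPM (median 365) in PBS libraries, and the difference did not pass the test (log2 fold change 0.50 ± 0.25, adjusted p = 0.154, edgeR quasi-likelihood test with Benjamini-Hochberg adjustment). With PBS replicates 5 and 8 alone it did (0.82 ± 0.20, adjusted p = 0.0273). Fold changes are DEN ALIOS over PBS on a log2 scale with their standard error, n = 6 and 8, and CPM throughout are scaled by TMM, which corrects for differences in library composition. Cd3d stood at 103 to 143 CPM (median 120.2) against 53.7 to 131 CPM (median 108). Cd247, the zeta chain, stood at 151 to 223 CPM (median 170.4) against 93.1 to 239 CPM (median 165). Neither passed, and the groups overlapped for both. Cd3d was called higher in a fit with sequencing run as a term, described below (log2 difference 1.14). The PBS side of that fit rests on PBS replicates 1 to 3. Cd3g did not pass either (log2 fold change -0.30 ± 0.34, adjusted p = 0.555), and its difference was positive with PBS replicates 5 and 8 alone (0.26). Of 21 genes of the receptor complex and its proximal signalling, 3 rose and 2 fell, with a median difference of 0.26, against 11.6% higher and 11.7% lower over all genes tested. In a fit with run as a term 7 rose and 0 fell, with a median of 0.98. Ubash3a, a negative regulator of receptor signals, was among the rises (log2 fold change 0.66 ± 0.13, adjusted p = 0.0017). Trat1, an adaptor of the receptor complex, was among the falls (log2 fold change -1.16 ± 0.19, adjusted p = 3.16e-04), but not with run as a term.

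Of 12008 genes tested, 2804 differed (23.4%), 1396 of them higher (11.6%) and 1408 lower (11.7%) in DEN ALIOS. The groups' values did not overlap for 972 genes (8.09%), of which 695 were higher (5.79%) and 277 lower (2.31%) in DEN ALIOS. The median difference over all tested genes was -0.02. Leaving out DEN ALIOS replicate 1, 3 or 5 brought the lower calls to 908, 899 and 917, and no other single library moved a count by over 1.5 times. Counts for each gene list are to be read against these shares. In sorted bulk cells, fewer cells of a type and less RNA per cell cannot be told apart.

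Among the genes that stood furthest apart were the checkpoint receptors and the chemokine and granzyme genes. The 250 bases upstream of the start of 4 of them are shown, because these genes moved together: Pdcd1 (PD-1) and Tigit as inhibitory receptors, Ccl3 as a chemokine and Gzmk as a granzyme. Sequences are RefSeq's, on GRCm38.p6, at chr1:94052554-94052803, minus strand for Pdcd1, chr16:43664185-43664434, minus strand for Tigit, chr11:83649379-83649628, minus strand for Ccl3 and chr13:113180966-113181215, minus strand for Gzmk. Each is written 5′ to 3′ on the gene's own strand, with the match of a searched motif in capitals.
Pdcd1: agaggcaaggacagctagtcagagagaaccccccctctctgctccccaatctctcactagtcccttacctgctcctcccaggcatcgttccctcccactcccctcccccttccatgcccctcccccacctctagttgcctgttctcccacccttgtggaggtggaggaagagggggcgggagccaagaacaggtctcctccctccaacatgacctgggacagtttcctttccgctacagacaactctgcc
Tigit: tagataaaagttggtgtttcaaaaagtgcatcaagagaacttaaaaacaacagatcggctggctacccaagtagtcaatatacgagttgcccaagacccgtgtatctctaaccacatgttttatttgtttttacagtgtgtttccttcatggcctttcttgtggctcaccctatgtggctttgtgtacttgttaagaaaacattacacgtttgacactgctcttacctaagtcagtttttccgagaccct
Ccl3: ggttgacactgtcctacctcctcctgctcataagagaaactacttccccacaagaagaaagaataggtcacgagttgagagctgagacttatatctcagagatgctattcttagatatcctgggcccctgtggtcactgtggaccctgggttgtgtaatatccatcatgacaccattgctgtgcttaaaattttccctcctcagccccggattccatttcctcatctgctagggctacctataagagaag
Gzmk: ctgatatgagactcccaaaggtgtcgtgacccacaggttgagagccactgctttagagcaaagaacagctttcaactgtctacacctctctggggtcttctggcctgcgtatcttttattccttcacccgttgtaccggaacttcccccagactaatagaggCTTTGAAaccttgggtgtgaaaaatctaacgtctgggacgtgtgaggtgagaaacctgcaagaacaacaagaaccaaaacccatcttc
The upstream 250 bases were searched on both strands for 4 motifs. They were TGANTCA for AP-1 (in 6.75% of 32851 promoters of this length), AAAGGTCA for NR4A factors (1.34%), AGGTGTGA for T-box factors (1.12%) and TTCAAAG for TCF/LEF (4.46%). Only the Gzmk sequence held one, a TCF/LEF match on the reverse strand that begins 88 bases before the start (CTTTGAA), and the other 3 held none of these letters. A match of letters is not a site, and nothing follows here about the factors.

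Checkpoint and exhaustion genes were higher in liver T cells of the tumour model. Of 20 listed genes tested, 14 rose and 0 fell, with a median log2 difference of 1.74. Pdcd1, which encodes PD-1, lay between 48.7 and 176 CPM (median 134) in DEN ALIOS libraries and between 2.41 and 7.19 CPM (median 5.38) in PBS libraries (log2 fold change 4.54 ± 0.30, adjusted p = 3.90e-08). Every DEN ALIOS library was above every PBS library, and the lowest, DEN ALIOS replicate 2, was still above the highest PBS value. Lag3, an inhibitory receptor that binds MHC class II, lay between 38.6 and 158 CPM (median 106) in DEN ALIOS libraries and between 0 and 3.12 CPM (median 1.89) in PBS libraries (log2 fold change 5.70 ± 0.37, adjusted p = 3.90e-08). The groups did not overlap here either. Tigit, an inhibitory receptor for poliovirus receptor family ligands, stood at 50.1 to 134 CPM (median 96.9) against 0 to 10.8 CPM (median 6.94) (log2 fold change 3.96 ± 0.33, adjusted p = 3.07e-07). Tox2, a relative of TOX, stood at 19.4 to 45.1 CPM (median 25.3) against 0 to 3.56 CPM (median 0.700) (log2 fold change 4.86 ± 0.42, adjusted p = 3.00e-07). Both were separated between the groups in all 14 libraries. TOX itself, the nuclear factor tied to the exhausted state, lay between 161 and 368 CPM (median 250) in DEN ALIOS libraries and between 17.9 and 48.9 CPM (median 36.2) in PBS libraries (log2 fold change 2.72 ± 0.21, adjusted p = 1.20e-07). The mucin-domain receptor TIM-3 (Havcr2) stood at 40.9 to 159.9 CPM (median 68.9) against 0 to 12.3 CPM (median 8.75) (log2 fold change 3.11 ± 0.31, adjusted p = 3.77e-06). Ctla4, which competes with CD28 for its ligands, stood at 31.8 to 117 CPM (median 82.6) against 3.58 to 22.7 CPM (median 8.94) (log2 fold change 2.84 ± 0.33, adjusted p = 1.76e-05). All 3 were apart in every library. The other called members were Entpd1, Cd244a, Cd38, Batf, Ikzf2, Cd200 and its receptor Cd200r1. Cd160, Btla, Vsir, Cd274, Nt5e and Id2 did not pass. Pdcd1, Lag3, Tigit, Tox, Tox2, Havcr2, Ctla4, Cd200 and Cd200r1 were each called in the same direction under all 28 alternative settings and left-out libraries.

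**Figure D1:**
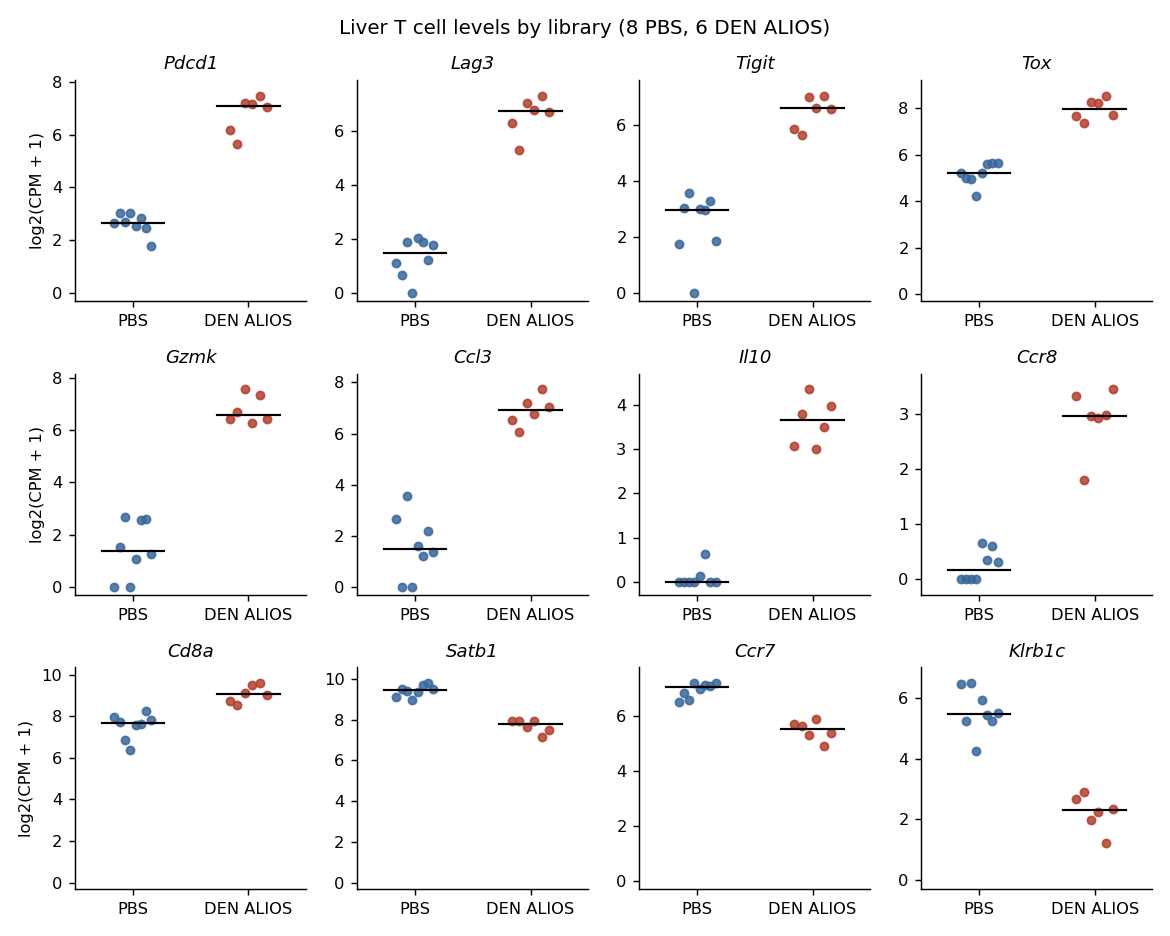
Level of 12 genes in each of the 14 liver T cell libraries, as log2(CPM + 1), with 1 point per library and a line at each group's median. Checkpoint, chemokine and granzyme genes such as Pdcd1 (48.7 to 176 against 2.41 to 7.19 CPM) did not overlap between the groups, and Satb1 and Klrb1c lay lower in every DEN ALIOS library.

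Effector genes rose beside them. Of 19 cytotoxic effector genes tested, 14 were higher and 0 lower, with a median log2 difference of 1.46. The chemokine Ccl3 (MIP-1 alpha), which draws leukocytes to inflamed tissue, lay between 65.8 and 210.3 CPM (median 119.7) in DEN ALIOS libraries and between 0 and 10.8 CPM (median 1.84) in PBS libraries (log2 fold change 5.89 ± 0.54, adjusted p = 3.79e-06). Ccl4 (MIP-1 beta), a related chemokine, stood at 47.8 to 122 CPM (median 81.9) against 0 to 6.48 CPM (median 3.14) (log2 fold change 4.51 ± 0.30, adjusted p = 3.90e-08). Neither overlapped between the groups. Gzmk, a tryptase granzyme of memory-like and exhausted CD8+ T cells, lay between 75.8 and 187 CPM (median 94.0) in DEN ALIOS libraries and between 0 and 5.42 CPM (median 1.63) in PBS libraries (log2 fold change 5.56 ± 0.43, adjusted p = 3.12e-07). Gzma, another tryptase granzyme, stood at 161 to 294 CPM (median 228) against 3.42 to 72.6 CPM (median 42.9) (log2 fold change 2.66 ± 0.51, adjusted p = 0.0026), again without overlap. Ccl5 (RANTES) stood at 955 to 2084 CPM (median 1254) against 42.9 to 422 CPM (median 236) (log2 fold change 2.54 ± 0.36, adjusted p = 1.25e-04), also apart in all 14 libraries. Ifng, the type 1 cytokine interferon gamma, stood at 21.6 to 73.3 CPM (median 41.8) against 7.47 to 20.8 CPM (median 13.1) (log2 fold change 1.84 ± 0.31, adjusted p = 4.69e-04). Gzmb, the aspartate-cleaving granzyme, was less clear. It lay between 123 and 670.3 CPM (median 255) in DEN ALIOS libraries and between 35.8 and 171 CPM (median 97.0) in PBS libraries, with overlap (log2 fold change 1.46 ± 0.40, adjusted p = 0.0177), and it was not called with PBS replicates 5 and 8 alone (log2 difference 1.10). Eomes, a T-box factor of effector, memory and exhausted CD8+ cells, stood at 105 to 258 CPM (median 149.5) against 21.5 to 87.3 CPM (median 42.2) (log2 fold change 1.78 ± 0.26, adjusted p = 1.06e-04) and did not overlap. Gzmm, Ctsw, Lamp1, Klrg1 and Hopx did not pass.

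The balance of CD8 to CD4 transcripts shifted. Cd8a stood at 371 to 764 CPM (median 534) against 82.3 to 304 CPM (median 201), with no overlap (log2 fold change 1.48 ± 0.24, adjusted p = 2.53e-04). Cd4 stood at 175 to 377 CPM (median 250) against 100.2 to 289 CPM (median 164) and did not pass (log2 fold change 0.50 ± 0.20, adjusted p = 0.0768), although it did without PBS replicate 7 and in 3 other alternatives. The ratio of Cd8a to Cd4 counts in 1 library lay between 1.13 and 4.36 (median 2.29) in DEN ALIOS and between 0.724 and 1.58 (median 1.05) in PBS libraries. The mean log2 ratio was higher by 1.02 in DEN ALIOS (exact permutation test, two-sided, p = 0.00533). DEN ALIOS replicate 1 (1.13) fell inside the PBS range, and replicate 5 (4.36) was the highest. Without the 2 shallow PBS libraries, whose ratios rest on 42 and 58 counts and on 23 and 28 counts, the difference was 0.87 (exact permutation test, two-sided, p = 0.0173). Cd8b1, the beta chain, stood at 272 to 556 CPM (median 408) against 39.4 to 400.4 CPM (median 244) (log2 fold change 0.75 ± 0.30, adjusted p = 0.0757). It passed in 6 of 28 alternatives, among them the fits without the 2 shallow libraries (0.56 ± 0.18, adjusted p = 0.035), with run as a term (2.04 ± 0.71, adjusted p = 0.0477), and without PBS replicate 4 (0.60) or 7 (0.89). Whether more CD8+ cells or more Cd8a RNA per cell stood behind the ratio was not tested.

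**Figure D2:**
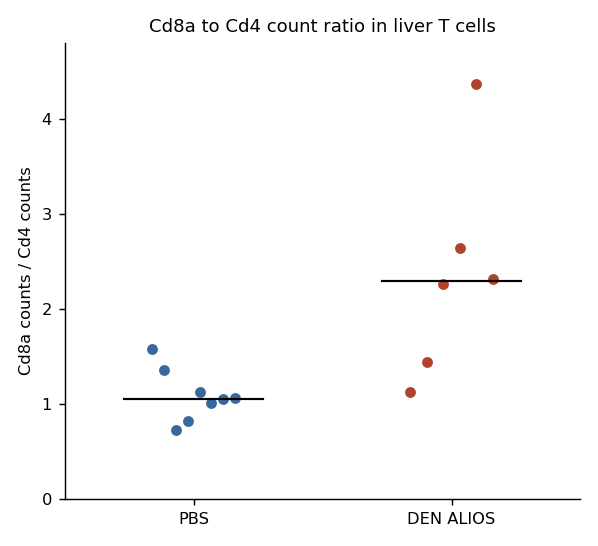
Ratio of Cd8a to Cd4 counts in each of the 14 libraries, by group, 1 point per library. DEN ALIOS libraries lay between 1.13 and 4.36 and PBS libraries between 0.724 and 1.58.

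Genes listed for regulatory T cells, which restrain other T cells, were mostly higher. Of 18 listed genes tested, 13 were higher and 1 lower (Il2ra, the IL-2 receptor alpha chain), with a median log2 difference of 1.49. Foxp3, which defines the lineage, rose modestly. It stood at 27.3 to 58.4 CPM (median 37.6) against 7.16 to 32.4 CPM (median 20.3) with overlap (log2 fold change 0.96 ± 0.24, adjusted p = 0.00745), and it was called neither with run as a term (log2 difference 1.85 ± 0.83) nor with DEN ALIOS libraries of the first run alone (1.04). Il10, an anti-inflammatory cytokine, had 567 counts over the 6 DEN ALIOS libraries and 3 over the 8 PBS libraries, a depth-scaled ratio of 172 (95% interval for counting error alone, 58.4 to 834). It lay between 7.02 and 19.4 CPM (median 11.6) in DEN ALIOS libraries and between 0 and 0.544 CPM (median 0) in PBS libraries (adjusted p = 2.84e-07). The highest PBS library was below the lowest DEN ALIOS library. Areg, an epidermal growth factor receptor ligand made by tissue-repair regulatory T cells, stood at 2.62 to 4.61 CPM (median 3.92) against 0 to 0.345 CPM (median 0) (log2 fold change 4.73 ± 0.53, adjusted p = 6.22e-06). Ccr8, a chemokine receptor of tumour-infiltrating regulatory T cells, stood at 2.48 to 9.96 CPM (median 6.81) against 0 to 0.566 CPM (median 0.115) (log2 fold change 4.49 ± 0.52, adjusted p = 8.72e-06). Neither overlapped. Itgb8, the integrin beta chain that activates TGF-beta, stood at 9.47 to 19.8 CPM (median 17.4) against 0 to 1.36 CPM (median 0.816) (log2 fold change 4.03 ± 0.31, adjusted p = 1.20e-07). Tnfrsf9 (4-1BB), an activation receptor on CD8+ and regulatory T cells, stood at 30.0 to 66.9 CPM (median 59.8) against 0.594 to 14.3 CPM (median 6.93) (log2 fold change 3.02 ± 0.30, adjusted p = 2.16e-06). Several of these genes are also found in activated conventional T cells, and the cells that carried them were not identified.

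Among 19 cytokine genes tested, 9 rose and 4 fell, with a median log2 difference of 1.84. Il21, a helper cytokine that sustains CD8+ T cells and B cells, lay between 7.23 and 16.6 CPM (median 10.1) in DEN ALIOS libraries and between 0 and 3.58 CPM (median 0.132) in PBS libraries (log2 fold change 5.30 ± 0.56, adjusted p = 3.78e-06). Its highest PBS value came from the shallow replicate 4, and no DEN ALIOS library was as low. Il4, the type 2 cytokine of NKT and Th2 cells, went the other way. It lay between 0 and 0.262 CPM (median 0.206) in DEN ALIOS libraries and between 0 and 14.3 CPM (median 2.92) in PBS libraries (log2 fold change -4.0 ± 0.79, adjusted p = 0.00163), so the 6 DEN ALIOS libraries were all at or near 0, and the highest PBS value was again replicate 4. Il4 was not called with run as a term or with DEN ALIOS libraries of the first run alone, and without the shallow libraries its counts were too low to be tested. Il16, Csf2 and Ltb were the other called falls. Maf, a transcription factor that drives Il10 and Il21, stood at 109 to 189 CPM (median 155) against 50.6 to 103 CPM (median 61.8) (log2 fold change 1.18 ± 0.18, adjusted p = 1.27e-04) without overlap.

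Genes of naive and recirculating T cells were lower. Of 18 listed genes tested, 0 rose and 14 fell, with a median log2 difference of -1.08. Satb1, a chromatin organiser highly expressed in naive T cells, lay between 144 and 248 CPM (median 222) in DEN ALIOS libraries and between 497 and 882 CPM (median 704) in PBS libraries (log2 fold change -1.73 ± 0.17, adjusted p = 2.16e-06). Actn1, an actin-crosslinking protein gene that is high in naive T cells, stood at 80.8 to 144 CPM (median 101) against 233 to 689 CPM (median 326) (log2 fold change -1.82 ± 0.23, adjusted p = 2.08e-05). In both cases every DEN ALIOS library was below every PBS library. Ccr7, the receptor for entry into lymph nodes, stood at 29.2 to 58.6 CPM (median 45.2) against 90.8 to 147 CPM (median 133) (log2 fold change -1.48 ± 0.17, adjusted p = 8.50e-06), again without overlap. Igfbp4 stood at 16.7 to 94.2 CPM (median 35.1) against 104 to 335 CPM (median 184) (log2 fold change -2.0 ± 0.37, adjusted p = 0.00129), also without overlap. Lef1, the gene of LEF-1, fell with overlapping groups (log2 fold change -1.45 ± 0.26, adjusted p = 7.02e-04). Tcf7, the gene of TCF-1, fell less clearly (log2 fold change -0.85 ± 0.27, adjusted p = 0.0286). Its call was lost when DEN ALIOS replicate 2, 3, 5 or 6 or PBS replicate 7 was left out. Il7r, the receptor for the survival cytokine IL-7, was just past the threshold (log2 fold change -0.60 ± 0.21, adjusted p = 0.0483), and of the 14 libraries left out in turn its call held only without DEN ALIOS replicate 1 or PBS replicate 4. It was lost with PBS replicates 5 and 8 alone (-0.64) and kept with run as a term (-2.27) and without both shallow libraries (-0.72). The naive list had 13 of 18 called lower with PBS replicates 5 and 8 alone and 8 of 18 with run as a term, where Lef1 (-1.81), Tcf7 (-1.47), Igfbp4 (-2.02) and Ccr7 (-2.32) were not called. Igfbp4 was not called with replicates 5 and 8 alone either (-1.97).

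Genes linked to residence in tissue split. Of 16 tested, 9 rose and 2 fell, with a median log2 difference of 0.70. Rgs1, a regulator that dampens chemokine receptor signalling and retains cells in tissue, lay between 279.6 and 732 CPM (median 463) in DEN ALIOS libraries and between 28.6 and 65.0 CPM (median 45.2) in PBS libraries (log2 fold change 3.34 ± 0.22, adjusted p = 3.90e-08). Prdm1 (Blimp-1), a factor of effector and resident cells, stood at 55.3 to 107 CPM (median 75.0) against 3.58 to 32.5 CPM (median 12.8) (log2 fold change 2.58 ± 0.26, adjusted p = 2.20e-06). Bhlhe40, a factor that supports cytokine production, stood at 92.9 to 307 CPM (median 224) against 17.9 to 54.2 CPM (median 40.1) (log2 fold change 2.44 ± 0.28, adjusted p = 9.02e-06). Rgs1, Bhlhe40 and Prdm1 did not overlap between groups. Zfp683 (Hobit), a factor of resident and NKT cells, stood at 5.14 to 16.9 CPM (median 13.1) against 25.9 to 104 CPM (median 58.9), lower in every DEN ALIOS library (log2 fold change -2.32 ± 0.34, adjusted p = 1.80e-04). Cxcr6, the receptor that holds T and NKT cells in liver sinusoids, stood at 109.8 to 236 CPM (median 172) against 28.6 to 176 CPM (median 88.5) with overlap (log2 fold change 0.91 ± 0.30, adjusted p = 0.0363), and was not called in 16 of 28 alternatives. Its difference was larger with run as a term (1.64 ± 0.77) and smaller with PBS replicates 5 and 8 alone (0.46 ± 0.26), and its call was lost without any 1 of DEN ALIOS replicates 1, 3, 4, 5 and 6 or of PBS replicates 1, 4, 6 and 7. Itgae (CD103) did not pass (log2 fold change -0.53 ± 0.22, adjusted p = 0.0906), although it did without the 2 shallow libraries (-0.64) or without PBS replicate 4 (-0.59). Of 24 homing receptors tested, 12 rose and 1, Ccr7, fell. Of those that rose, Ccr6 and Xcr1 had the other sign with run as a term (-0.17 and -1.11), where 5 of 25 homing genes were called higher and 1, Ccr9, lower. Ccr7 was not called there (log2 difference -2.32 ± 0.87, adjusted p = 0.0653). Residency genes were called higher in 6 cases with run as a term and in 5 with PBS replicates 5 and 8 alone.

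Genes of NK and NKT cells went both ways, and the NKT genes Zbtb16 and Klrb1c were lower. Of 20 tested, 2 rose (Eomes and Cd7) and 6 fell, with a median log2 difference of -0.15. Zbtb16, the gene of PLZF, lay between 0.219 and 10.6 CPM (median 3.01) in DEN ALIOS libraries and between 28.6 and 67.7 CPM (median 54.4) in PBS libraries (log2 fold change -3.84 ± 0.53, adjusted p = 1.72e-04). Klrb1c, the gene of NK1.1, stood at 1.31 to 6.54 CPM (median 3.90) against 17.9 to 89.4 CPM (median 43.5) (log2 fold change -3.72 ± 0.36, adjusted p = 1.89e-06). Both were separated in all 14 libraries. Klra5, a Ly49 receptor, also fell, with overlap (log2 fold change -3.39 ± 0.62, adjusted p = 9.33e-04). Ncr1, the activating receptor NKp46, fell with overlap too (log2 fold change -3.31 ± 0.80, adjusted p = 0.00911). Members of the Klra family are near copies of one another, so their counts are uncertain. Tcrg-C1, a constant gene of the T cell receptor gamma chain, stood at 1.46 to 5.52 CPM (median 3.84) against 5.71 to 35.2 CPM (median 9.72) (log2 fold change -1.72 ± 0.41, adjusted p = 0.00606). Klrb1c was called lower under all 28 alternatives. Zbtb16 was not called with run as a term (log2 difference -3.15), nor were Klra5 and Tcrg-C1.

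**Figure D3:**
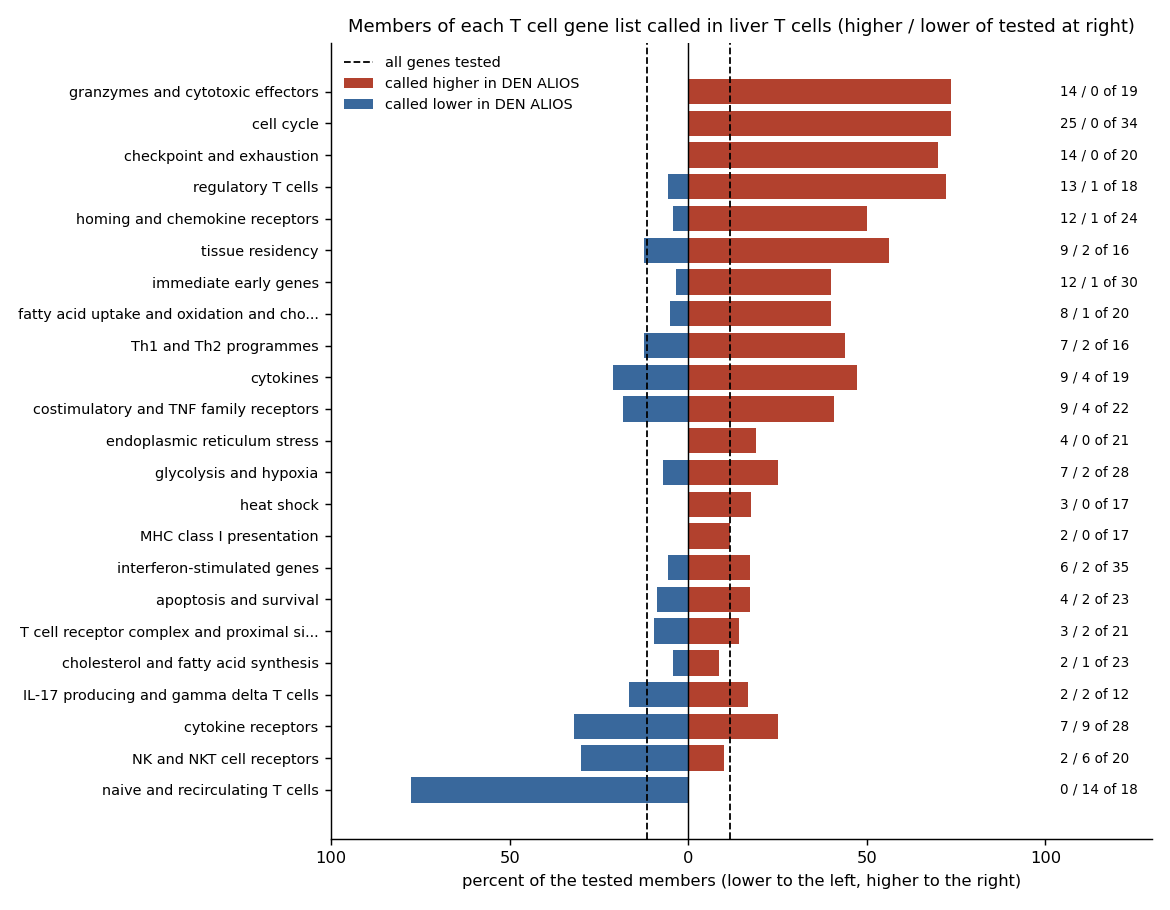
Percent of the tested members of each T cell gene list called higher (right) and lower (left) in DEN ALIOS liver T cells, with dashed lines at the shares over all genes tested and the counts at the right. Checkpoint genes (14 of 20 higher, 0 lower), cytotoxic effectors (14 of 19 higher) and cell cycle genes (25 of 34 higher) were mostly higher, and naive T cell genes (14 of 18) lower.

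Genes of cell division were higher. Of 34 cell cycle genes tested, 25 rose and 0 fell, with a median log2 difference of 1.03. Mki67, a marker of cycling cells, lay between 304 and 690.1 CPM (median 448) in DEN ALIOS libraries and between 85.9 and 324 CPM (median 187) in PBS libraries with a small overlap (log2 fold change 1.23 ± 0.24, adjusted p = 0.00175). Kif11, a spindle motor, stood at 43.3 to 83.7 CPM (median 57.1) against 6.53 to 34.6 CPM (median 20.1) (log2 fold change 1.63 ± 0.25, adjusted p = 1.97e-04). Kif11 did not overlap between the groups. Ccna2, cyclin A2, stood at 17.9 to 42.8 CPM (median 31.0) against 0 to 15.1 CPM (median 8.43) (log2 fold change 1.72 ± 0.32, adjusted p = 0.00106). Ccnb1, cyclin B1 of mitosis, stood at 3.56 to 6.74 CPM (median 5.64) against 0 to 2.45 CPM (median 0.741) (log2 fold change 1.97 ± 0.50, adjusted p = 0.00879). Neither cyclin overlapped. With PBS replicates 5 and 8 alone, 6 of the 34 were called higher and 0 lower, with a median log2 difference of 0.87. Mki67 (0.91) and Ccna2 (1.23) were not called there. With run as a term, 25 were called higher and 0 lower.

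Immediate early genes, which are induced quickly by receptor signals, were higher in part. Of 30 tested, 12 rose and 1 (Myc) fell, with a median log2 difference of 0.75. Nr4a2, an orphan nuclear receptor induced by T cell receptor signals, lay between 22.1 and 187 CPM (median 113) in DEN ALIOS libraries and between 0 and 5.18 CPM (median 2.74) in PBS libraries (log2 fold change 5.08 ± 0.48, adjusted p = 5.18e-06). Nr4a1, its relative, stood at 42.4 to 66.8 CPM (median 58.2) against 5.54 to 15.4 CPM (median 11.0) (log2 fold change 2.39 ± 0.20, adjusted p = 3.00e-07). Dusp1, a phosphatase of stress kinases, stood at 46.0 to 179.6 CPM (median 130.2) against 5.45 to 34.5 CPM (median 12.0) (log2 fold change 2.67 ± 0.43, adjusted p = 5.51e-04). None of the 3 overlapped between the groups. Other early genes such as Fosb, Jun, Egr1, Egr2, Atf3 and Ier2 did not pass. Of 17 heat shock genes, 3 rose. Hspa1a, an inducible HSP70, stood at 14.7 to 136 CPM (median 65.0) against 0.511 to 16.3 CPM (median 4.61) (log2 fold change 3.83 ± 0.69, adjusted p = 0.00175). Hspa1b stood at 26.6 to 232 CPM (median 129) against 1.36 to 38.3 CPM (median 12.8) (log2 fold change 3.15 ± 0.69, adjusted p = 0.00612). These are near-identical copies, so the counts of each are uncertain, and neither was called with run as a term, nor Hspa1a with PBS replicates 5 and 8 alone (4.65). With run as a term, 4 immediate early genes were called higher and 0 lower, and Nr4a1 was not among them.

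The remaining lists covered interferon responses, metabolism, survival and receptors. Interferon-stimulated genes (35 tested) rose in 6 cases and fell in 2. Glycolysis genes (28 tested) rose in 7 and fell in 2, cholesterol synthesis genes (23 tested) in 2 and 1, and fatty acid genes (20 tested) in 8 and 1. Apoptosis and survival genes (23 tested) rose in 4 and fell in 2. Costimulatory receptor genes (22 tested) rose in 9 cases and fell in 4. Tnfrsf1b, the TNF receptor 2 gene, rose (log2 fold change 1.68 ± 0.19, adjusted p = 8.50e-06), and Cd40lg, the helper ligand CD40L, fell (log2 fold change -1.69 ± 0.32, adjusted p = 0.00151). Cytokine receptor genes (28 tested) rose in 7 and fell in 9. Genes of IL-17 producing and gamma delta T cells (12 tested) rose in 2 and fell in 2. MHC class I genes (17 tested) rose in 2 and ER stress genes (21 tested) in 4, and neither had a fall. Genes of the Th1 and Th2 programmes (16 tested) rose in 7 and fell in 2. With run as a term 8 of 17 MHC class I genes were called higher (median log2 difference 1.09 against 0.25), while heat shock genes were called in 0 of 17 cases, Th1 and Th2 genes in 2 higher and 1 lower of 17, fatty acid genes in 3 higher and 1 lower of 22 and cytokine receptor genes in 2 higher and 4 lower of 28. With PBS replicates 5 and 8 alone, 1 interferon-stimulated gene was called higher and 2 lower, and 3 fatty acid genes higher and 0 lower.

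The largest rises were of genes nearly silent in PBS libraries. Of the 10 chosen by size, Il10 is given above, and Alas2 and Hbb-bs are erythroid genes given with other cell types. Clgn, an ER chaperone known from the testis, had 587 counts over the DEN ALIOS libraries and 0 over the PBS libraries, so it was at least 178-fold higher when 3 counts over the group are taken as the floor. It lay between 7.89 and 18.1 CPM (median 10.8) in the DEN ALIOS libraries. Faxc, named for failed axon connections in the fly, had 594 and 2 counts, a ratio of 270 (95% interval for counting error, 74.3 to 2232). Adgrg1 (GPR56), an adhesion receptor of cytotoxic lymphocytes, lay between 28.9 and 111 CPM (median 59.8) in DEN ALIOS libraries and between 0 and 2.71 CPM (median 0) in PBS libraries (log2 fold change 8.50 ± 0.59, adjusted p = 1.04e-07). Its highest PBS value came from the shallow replicate 3. Coch, which encodes the extracellular protein cochlin, stood at 6.31 to 40.5 CPM (median 24.8) against 0 to 0.852 CPM (median 0) (log2 fold change 6.80 ± 0.66, adjusted p = 2.27e-06). Rgs16, a brake on G protein signals, stood at 29.1 to 129 CPM (median 77.6) against 0 to 10.7 CPM (median 0.738) (log2 fold change 6.46 ± 0.55, adjusted p = 1.52e-06). Neither overlapped between the groups. Spp1, the secreted protein osteopontin that both macrophages and activated T cells make, stood at 7.88 to 43.7 CPM (median 24.3) against 0 to 0.594 CPM (median 0.0472) (log2 fold change 7.22 ± 0.57, adjusted p = 1.26e-07). Vcam1, an adhesion molecule, stood at 2.62 to 27.1 CPM (median 9.04) against 0 to 0.341 CPM (median 0) (log2 fold change 6.46 ± 0.79, adjusted p = 1.76e-05). Clgn, Faxc, Adgrg1, Coch, Rgs16 and Spp1 were called under all 28 alternatives. Vcam1 was not called with run as a term. Macrophages also express Spp1, Vcam1 and Il10. The summed level of macrophage markers was 33.0 to 538 CPM in DEN ALIOS against 7.16 to 59.6 CPM in PBS libraries. That sum includes Spp1 itself, so it is not a separate measure beside Spp1. The part of macrophages in these values was not tested.

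The 10 largest falls were all small nucleolar RNA genes, which guide chemical modification of ribosomal RNA. Of 117 tested, 77 fell and 0 rose, with a median log2 difference of -2.82. They held 0.101% to 0.300% of counts in DEN ALIOS libraries. In PBS libraries they held 0.111% to 4.28%, with replicates 5 and 8 at 0.203% and 0.111% and the other 6 between 1.24% and 4.28%. Those 6 are also the libraries with more than 25% of entries unaligned. With PBS replicates 5 and 8 alone, 1 of 111 rose and 0 fell, with a median of 0.48. Ribosomal protein genes fell in 24 of 84 cases and rose in 1, and with those libraries alone 3 of 85 fell and 0 rose. With run as a term 21 of 85 fell and 2 rose, and without the shallow libraries 37 of 84 fell and 1 rose. For small nucleolar RNA genes these fits called 24 of 131 and 60 of 106 lower, and 0 higher in either. Both fits keep PBS libraries with more than 25% of entries unaligned, and the cause of the falls was not tested.

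Transcripts of other cell types were present in both groups, with summed levels above that of Cd3e in some libraries. Some were higher and some lower in DEN ALIOS. Erythroid genes (4 tested) were called higher in all 4 cases, with a summed level of 29.3 to 5798 CPM against 6.65 to 17.6 CPM. Hbb-bs, a haemoglobin beta chain gene, stood at 9.89 to 3295 CPM (median 557) against 0 to 10.7 CPM (median 0.584) (log2 fold change 9.38 ± 1.35, adjusted p = 4.48e-04). Alas2, the first enzyme of haem synthesis in red cell precursors, stood at 3.03 to 654 CPM (median 113) against 0 to 1.78 CPM (median 0.172) (log2 fold change 8.22 ± 1.29, adjusted p = 8.03e-04). Their log2 differences with run as a term were 0.05 ± 2.39 and 0.61 ± 3.46, and neither was called there or with PBS replicates 5 and 8 alone. Kupffer cell and macrophage genes (10 tested) rose in 6 cases, with a summed level of 33.0 to 538 CPM against 7.16 to 59.6 CPM. Monocyte and dendritic cell genes (18 tested) rose in 5, with 342 to 2411.6 against 426 to 1276 CPM. The fit with run as a term called 0 of 9 erythroid genes, 1 of 13 Kupffer and macrophage genes (Spp1) and 0 of 19 monocyte and dendritic cell genes higher, and the fit with PBS replicates 5 and 8 alone called 0 of 9, 1 of 12 (Spp1) and 1 of 18 (Siglech). Siglech, a receptor of plasmacytoid dendritic cells, stood at 35.2 to 214 CPM (median 77.8) against 0 to 8.70 CPM (median 2.24) (log2 fold change 4.99 ± 0.63, adjusted p = 9.63e-05). With run as a term the differences of Siglech, Clec9a, Flt3, Xcr1 and Hba-a1 turned negative (-4.66, -4.21, -2.48, -1.11 and -3.60). Of 14 B cell genes, 0 rose and 0 fell, with 120.2 to 502 against 149 to 496 CPM. In blood T cells all 14 were called lower in DEN ALIOS, with a median log2 difference of -2.73, against 8.83% of all genes tested there. Plasma cell genes (6 tested) rose in 3, with 129 to 258 against 35.8 to 97.5 CPM, one of which, Prdm1, is shared with T cells. Epithelial genes (3 tested) rose in 2, with 50.6 to 105 against 5.42 to 23.6 CPM, one of which is Spp1. Endothelial genes (8 tested) rose in 1 and fell in 1, and hepatocyte genes (19 tested) fell in 1, with 34.1 to 1482 against 53.2 to 3976 CPM. Platelet genes (3 tested) rose in 1 and fell in 1, with a summed level of 33.8 to 53.3 against 58.9 to 114 CPM. Neutrophil genes (2 tested) fell in 1, with a median sum of 12.0 against 39.7 CPM. Of the defining genes, Tnfrsf17, Gp1bb, Mcpt8 and Prss34 were at 0 in all 14 libraries. DEN ALIOS replicate 2 held the highest erythroid sum (5798 CPM), and in that library Hbb-bs (3295 CPM) stood above Cd3e (359 CPM). Their part in the results above was not tested.

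Library runs were examined through 2 drug-treated DEN ALIOS libraries that share a run with PBS replicates 1 to 3. They differ from the DEN ALIOS group by a CXCR2 inhibitor and, per their treatment label, an isotype antibody as well, and no test was made on so few. Levels here are scaled over all 36 liver libraries. Pdcd1 stood at 106 and 357 CPM in those 2, against 5.79 to 7.84 CPM in the 3 PBS libraries of that run. Lag3 stood at 74.4 and 236 CPM against 0.643 to 2.95 CPM. Gzmk stood at 118 and 252 CPM against 0 to 5.89 CPM. All 3 differences had the direction of the main comparison within 1 run. Klrb1c stood at 3.37 and 4.74 CPM against 40.1 to 97.2 CPM, and Satb1 at 125 and 220.0 CPM against 604 to 793 CPM. Siglech did not follow. It stood at 0.389 and 0.444 CPM in the 2 drug libraries of the PBS run, against 0 to 2.95 CPM in its PBS libraries. It stood at 33.8 and 125 CPM in 2 drug libraries of the DEN ALIOS runs, which had received the inhibitor together with anti-PD-1 (aPD1), an antibody against PD-1, so these pairs differ in drug as well as in run. Hbb-bs stood at 4.02 and 9.63 CPM in the first of these pairs and at 1480.2 and 1633 CPM in the other. These 2 genes were low in the drug libraries of the PBS run and high in those of the DEN ALIOS runs.

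**Figure D4:**
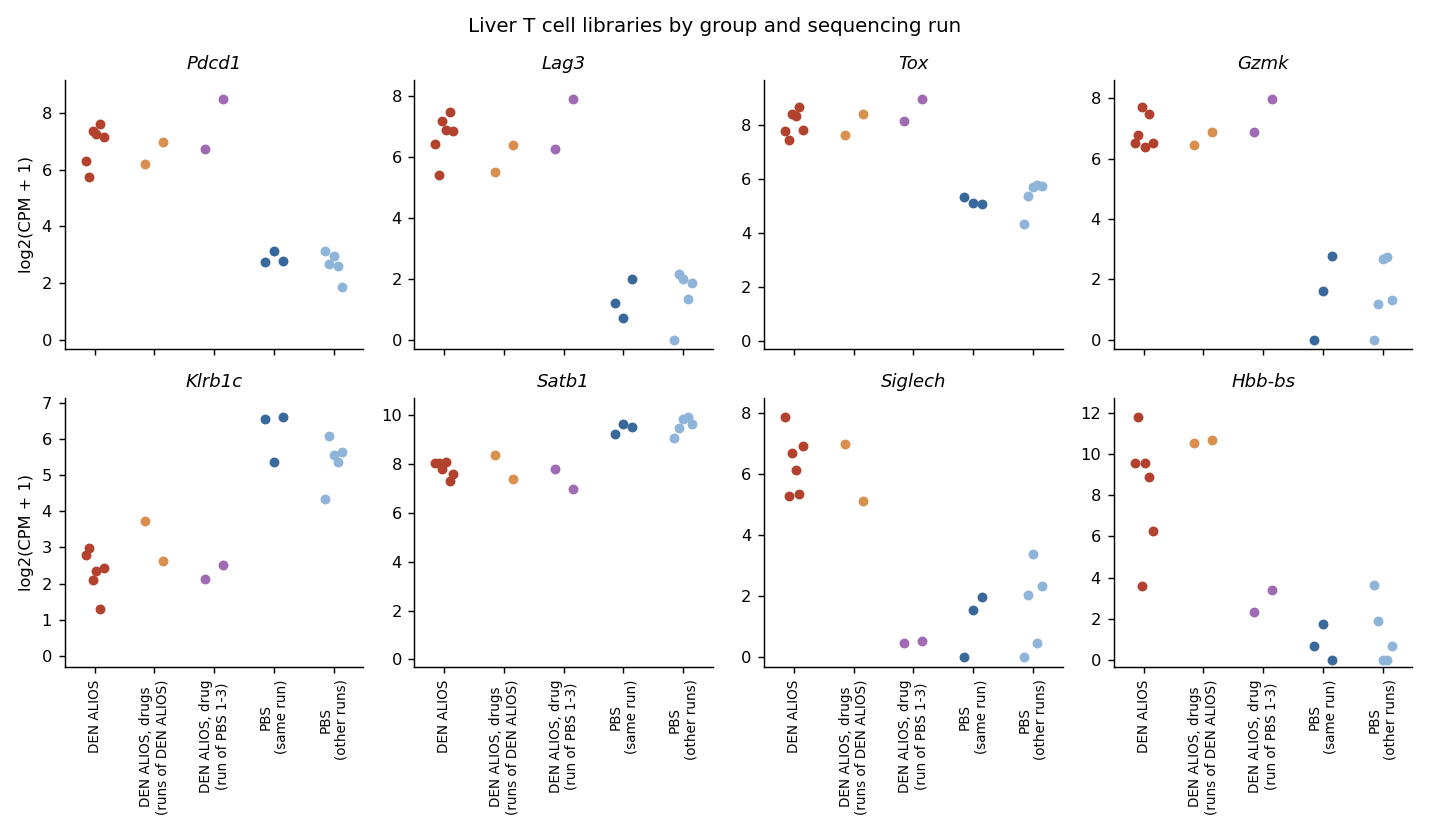
Level of 8 genes in liver T cell libraries by group and run, as log2(CPM + 1) scaled over 36 libraries, 1 point per library. Pdcd1, Lag3, Tox and Gzmk were higher in the drug-treated DEN ALIOS libraries that share a run with PBS libraries, while Siglech lay at 33.8 CPM or more in libraries of the DEN ALIOS runs and at 2.95 CPM or less in that shared run. Hbb-bs ranged from 11.0 to 3507 CPM in the DEN ALIOS libraries and reached 9.63 CPM in the shared run.

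A fit over all 36 liver libraries with run as a term, which assumes that drug and run effects add, tested 13501 genes and called 2216 (16.4%), 1423 higher (10.5%) and 793 lower (5.87%). Of the 2804 genes called in the main comparison, 1269 were called in the same direction, 1376 had the same direction without passing and 159 had the other direction, 2 of them called. Checkpoint genes were called higher in 13 of 20 cases, cytotoxic genes in 10 and regulatory T cell genes in 12. With PBS replicates 5 and 8 alone, 1829 of 13236 genes were called (13.8%), 1018 higher (7.69%) and 811 lower (6.13%), and checkpoint genes rose in 14 of 20 and regulatory genes in 12 of 18. Without the 2 shallow libraries, 3432 genes were called (28.6%), 1602 higher (13.4%) and 1830 lower (15.3%).

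Blood T cells of the same animals were used to ask which differences were larger in the liver. The liver difference minus the blood difference, with animal as a block, was tested in 6 DEN ALIOS and 8 PBS animals, and levels given for both sites are scaled over these 28 libraries. The liver and blood libraries of an animal shared a run in all cases but 1 PBS animal. Of 12511 genes, 216 differed (1.73%), 117 with a larger value in the liver (0.935%) and 99 with a smaller one (0.791%). This count moved with single animals. It was 99, 96, 131 and 99 without DEN ALIOS replicate 3, 4, 5 and 6, and 359, 332 and 337 without PBS replicate 4, 5 and 8. Blood alone, in 7 and 8 libraries, called 2290 of 11523 genes (19.9%), 1273 higher (11%) and 1017 lower (8.83%). Lag3 had a log2 difference of 5.70 in liver and 4.17 in blood (difference 1.76 ± 0.37, adjusted p = 0.0146). Tox had 2.72 and 1.07 (difference 1.73 ± 0.23, adjusted p = 5.29e-04). Ctla4 had 2.84 and 1.38 (difference 1.46 ± 0.29, adjusted p = 0.0109). Pdcd1 rose in both, 4.54 in liver and 3.82 in blood, and the difference of the 2 did not pass (0.79 ± 0.37, adjusted p = 0.263). Most checkpoint genes rose in blood too. Of the 20 tested, 15 were called higher and 1 lower in blood, against 14 higher and 0 lower in liver. In all, 6 of the 20 checkpoint genes differed between the sites, all with a larger rise in the liver, against 0.935% of all genes. Of these 6, Cd200 was not called in 8 and Cd200r1 in 12 of 21 alternatives, and either was lost without DEN ALIOS replicate 1, 3, 4, 5 or 6 or PBS replicate 1 or 2, and Cd200r1 also without DEN ALIOS replicate 2 or PBS replicate 3 or 7. Of 19 cytotoxic genes, 16 were called higher and 0 lower in blood, against 14 higher and 0 lower in liver. Between the sites 0 cytotoxic genes were called different, and whether the lists differ was not tested. Cd8a rose in both sites, 1.48 in liver and 0.698 in blood. Its difference between the sites did not pass (0.846 ± 0.252, adjusted p = 0.0841).

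Some regulatory and immediate early genes differed more in the liver than in blood. Of the 18 regulatory genes, 5 had a larger difference in the liver. Ccr8 lay at 2.59 to 10.5 CPM (median 7.26) in DEN ALIOS liver and 0 to 0.850 CPM (median 0.555) in DEN ALIOS blood (difference 4.03 ± 0.86, adjusted p = 0.018). Itgb8 rose in both sites, and more in the liver (2.17 ± 0.48, adjusted p = 0.0225). That difference was not called without DEN ALIOS replicate 3, 4, 5 or 6, and that of Ccr8 not without replicate 6. Dusp1 differed by 2.67 in liver and 0.04 in blood (difference 2.73 ± 0.45, adjusted p = 0.00532), and Nr4a1 by 2.39 and 0.18 (difference 2.01 ± 0.26, adjusted p = 5.29e-04). Of 30 immediate early genes, 6 had a larger difference in the liver. How cells were released from each site before the sort is not given in the sources used here.

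Several falls were larger in the liver. Klrb1c fell by 3.72 on the log2 scale in liver and by 0.79 in blood (difference -2.98 ± 0.47, adjusted p = 0.00294). Satb1 fell by 1.73 and 0.48 (difference -1.22 ± 0.18, adjusted p = 9.28e-04). Ccr7 differed by -1.48 in liver and -0.24 in blood (difference -1.24 ± 0.20, adjusted p = 0.00207). On the scale of the 28 liver and blood libraries, Ccr7 in PBS animals stood at 92.8 to 153 CPM (median 136) in liver and 200.1 to 278 CPM (median 234) in blood. In DEN ALIOS animals it stood at 31.1 to 61.5 CPM (median 47.3) in liver and 169 to 256 CPM (median 198) in blood. Of 18 naive T cell genes, 6 fell more in the liver.

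**Figure D5:**
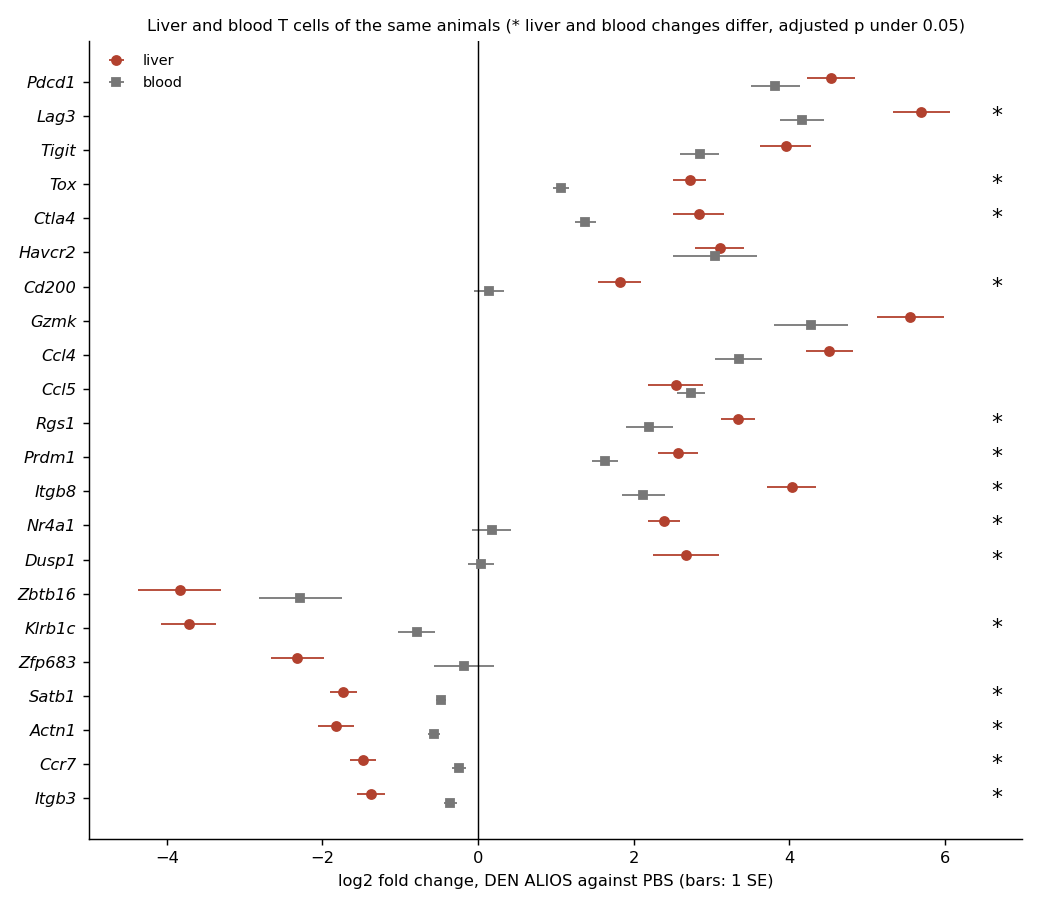
Log2 fold change of DEN ALIOS against PBS in liver (circles) and blood (squares) T cells for 22 named genes, with bars of 1 standard error and a star where the liver and blood differences were called different. Lag3 differed by 5.70 in liver and 4.17 in blood, and Klrb1c by -3.72 and -0.79.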

How the data were processed

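T cell RNA was extracted with the RNeasy Micro kit, made into libraries with the SMARTer Stranded Total RNA-Seq Pico v2 kit and sequenced paired-end, per the labels' protocols. The deposited table holds raw counts per gene, which the authors made against GRCm38. Per the submitters' processing notes, FastQC 0.11.8, Trim Galore 0.6.4, HISAT2 2.1.0 and HTSeq 0.11.2 were used, while the annotation release and strand setting are not given in the sources used here. Of 37713 genes, 37607 had a symbol. Summary rows that name no gene (71.4% of entries in these libraries) were left out.

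Here edgeR 4.0.16 in R 4.3.3 (filterByExpr with a minimum count of 10, TMM scaling, robust quasi-likelihood test, Benjamini-Hochberg threshold 0.05) compared the 6 DEN ALIOS with the 8 PBS libraries, without covariates. Levels are TMM-scaled CPM. Standard errors are the absolute log2 fold change divided by the square root of the F statistic. The liver minus blood comparison was the site by group interaction with animal as a block (28 libraries). Animals were paired by label code. Liver and blood deviations of an animal correlated with a median of 0.1103, against -0.029 for other animals of its group. The lowest same-animal correlation was -0.1562, and 8 of 14 were over 0.1. The Cd8a to Cd4 ratio was tested by exact permutation with SciPy 1.17.1. On simulated counts for 11842 genes, 48% of 2-fold and 92% of 4-fold changes were recovered, with 3.45% false calls. The simulated libraries had no run effect and no difference in alignment, so these shares do not cover either. Counts of replicates differed beyond sampling noise in all 43 pairs within groups (lowest chi-square per degree of freedom 9.92). Intervals cover counting error only.

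Named genes were Cd3e, Cd4, Cd8a, Pdcd1, Cxcr6, Gzmb, Foxp3, from each list the 4 (or fewer) strongest called genes by fold change at a mean of at least 1 CPM, or 2 by p where none was called, the 10 largest rises and falls, and the 5 largest of each in the liver minus blood comparison. Havcr2, Ctla4, Tox, Ccl5, Tcf7, Lef1, Ccr7, Il7r, Mki67, Cd200r1, Cd200, Tcrg-C1, Itgae and Eomes were added after their values were seen, and other listed members are named without values. The comparison, members and lists were chosen with earlier results of these data known. Alternatives were DESeq2 1.42.0, limma 3.58.1 with voom (liver minus blood), RLE scaling and other filters. Further ones were run, grouped by month, as a term over 36 liver libraries, subsets of runs and libraries, and each replicate left out. Some genes that the rule selects are not reported here.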

Additional observations from a re-analysis of the deposited data

Results flagged for a closer look

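Among 285 sets of 6 or 8 libraries, 46 held a library whose gap to the next was large for the group's range. Chance gives about 1 in 20 for independent, normally spread values, whereas some of these sets are mostly 0 CPM and genes vary together. DEN ALIOS replicate 2 stood apart 14 times, PBS replicate 4 10 times and PBS replicate 3 8 times, and the last 2 are the shallow libraries. DEN ALIOS replicate 1 stood apart in Fcrla (23.6 CPM) and Flt3 (50.4 CPM). DEN ALIOS replicate 2 stood apart in Alas2 (654 CPM), Blk (6.09 CPM), Bnip3l (172 CPM), Bpgm (236 CPM), Cd36 (39.0 CPM), Cd5l (74.2 CPM), Hba-a1 (283 CPM), Hbb-bs (3295 CPM), Isg20 (55.5 CPM), Lpl (49.4 CPM), Rsad2 (186 CPM), Snord42b (1.13 CPM), Snord4a (3.38 CPM) and Snord59a (2.93 CPM). DEN ALIOS replicate 4 stood apart in Nrgn (17.7 CPM). PBS replicate 1 stood apart in Igha (5.34 CPM), Lpl (7.12 CPM) and Tox2 (3.56 CPM). PBS replicate 2 stood apart in Hba-a1 (3.65 CPM). PBS replicate 3 stood apart in Adgrg1 (2.71 CPM), C1qc (5.42 CPM), Cd40lg (173 CPM), Il12rb2 (135 CPM), Il1r2 (5.42 CPM), Mmp9 (122 CPM), Prdm1 (32.5 CPM) and Tcrg-C1 (35.2 CPM). PBS replicate 4 stood apart in Blk (17.9 CPM), Bub1 (17.9 CPM), Cd3d (53.7 CPM), Erap1 (35.8 CPM), Fdps (21.5 CPM), Hbb-bs (10.7 CPM), Il21 (3.58 CPM), Il4 (14.3 CPM), Rgs16 (10.7 CPM) and Serpina3k (161 CPM). PBS replicate 5 stood apart in Xcr1 (4.72 CPM). PBS replicate 6 stood apart in Il10 (0.544 CPM) and Siglech (8.70 CPM). PBS replicate 7 stood apart in Actn1 (689 CPM), Bbc3 (18.6 CPM), Coch (0.852 CPM) and Snord59a (102 CPM).

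Of 143 named genes, 28 differed between DEN ALIOS and PBS animals by unequal amounts in liver and blood, by edgeR's test of the site by group interaction (adjusted p under 0.05). Of these 28, 10 were named because they were the largest in this same comparison, and of the 133 others 18 differed, against 1.73% of all genes tested. The log2 difference in the liver exceeded that in blood for Ccr8 (4.03), Fcrla (3.64), Faxc (3.51), Blnk (3.05), Tmcc3 (2.81), Dusp1 (2.73), March1 (2.51), Itgb8 (2.17), Nr4a1 (2.01), Cd200r1 (1.89), Lag3 (1.76), Cd200 (1.75), Tox (1.73), Ctla4 (1.46), Rgs1 (1.43), Prdm1 (1.13) and Cd4 (0.82). For Fcrla, Blnk and March1 the level in blood was lower in DEN ALIOS than in PBS animals, which adds to the difference. Their mean blood levels were 1.04 against 3.58 CPM, 1.44 against 4.70 CPM and 2.35 against 8.10 CPM. The log2 difference in the liver was below that in blood for Snord4a (-5.72), Snord59a (-5.68), Snord61 (-5.37), Snord70 (-4.99), Snord72 (-3.11), Klrb1c (-2.98), Dapl1 (-1.53), Ccr7 (-1.24), Satb1 (-1.22), Actn1 (-1.18) and Itgb3 (-0.93). The Snord genes among the latter are those whose counts were high in PBS liver libraries with many unaligned entries. Snord61 was not called in 14 of 21 alternatives, Faxc in 13, and Cd200r1, Prdm1 and Snord72 in 12. Cd4 was not called in 11, Cd200 in 8, Fcrla and Rgs1 in 6, and Dapl1 and Itgb8 in 5. Ccr8, Lag3 and March1 were not called in 1, and the others were called in all 21.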

How the results depend on the processing

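Of 4574 fold changes of named genes recomputed under alternatives, 4097 kept their direction and their side of the threshold, 428 kept the direction but no longer passed, 21 newly passed and 28 turned. In the liver comparison 326 genes (259 higher, 67 lower) were called in all 28 alternatives. Of 132 called named genes, 47 were among those kept in every alternative that tested them. The 28 count the same fit under 2 names, since the library labelled Vehicle is DEN ALIOS replicate 3. The 2804 calls (1396 higher, 1408 lower) became 778 (599, 179) with the first DEN ALIOS run only, 869 (608, 261) with the second, 4543 (2368, 2175) with the earliest PBS run only and 4562 (2162, 2400) with all 36 liver libraries setting the spread. They became 1423 (788, 635) with a change of at least 2-fold, and lower calls were 793 with run as a term and 899 without the library labelled Vehicle. With libraries of at most 25% unaligned entries, chosen after seeing the data, calls were 1829 and lower calls 811. Leaving out 1 library gave 1975 to 3421 calls (1076 to 1610 higher, 899 to 1811 lower).

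The title number as a replicate block gave 1550 calls (920 higher, 630 lower). Same-numbered libraries correlated between -0.0966 and 0.1524, so the numbers share only a name. The 216 liver minus blood calls (117 higher, 99 lower) became 472 (216, 256) with limma voom, 927 (385, 542) without a filter and 507 (210, 297) with no replicate block. They became 99 (53, 46) without the animal labelled Vehicle, and 337 (196 lower) without the animal split over 2 runs. These animals are DEN ALIOS replicate 3 and PBS replicate 8, so both fits recur among the animals left out singly. Leaving out 1 animal gave 96 to 359 calls (44 to 200 higher, 46 to 196 lower). Of the call changes under these settings, the cause was not tested. The Lag3 liver minus blood call was lost with no replicate block.

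With run as a term the log2 difference turned for Blk (0.54), Ccr6 (-0.17), Xcr1 (-1.11), Lpl (-1.01), Cd36 (-5.64), Cdh5 (-5.22), Siglech (-4.66), Clec9a (-4.21), Flt3 (-2.48), Blnk (-3.69), Fcrla (-0.80), Igha (-3.70), Hba-a1 (-3.60), Bpgm (-0.30), Kit (-1.81), March1 (-2.32) and Cd3g (0.65). With libraries of at most 25% unaligned entries it turned for Kit (-0.0622), Snord61 (0.60), Snord42a (1.10), Snord15a (0.43), Snord111 (1.12), Snord70 (1.22), Snord72 (0.0417), March1 (-0.43) and Cd3g (0.26). It turned for March1 with the second DEN ALIOS run only (-0.33) and for Cd3g with the later PBS runs only (0.0592). In the PBS libraries of 337110 and 440785 counts, genes of a few CPM rest on 1 or 2 counts.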
